A study of Arabidopsis thaliana with 6 samples.

Results

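The 4 genes described here are AT1G76600, AT1G05575, AT4G37290 and AT1G22810 of Arabidopsis, whose paraquat/mock ratio in leaves grew between 1 and 4 h after spraying. They were chosen by the values of that ratio, through probe sets that name 1 gene alone, and are 4 of 13286 genes with such a probe set. Each of the 4 has 1, among 13513 probe sets naming a single gene and 22746 in all. The ratio itself is therefore a description, with no test. The question asked of each gene is whether its ratio came with a lower signal in mock leaves or a higher one in paraquat leaves.

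Rosette leaves of 3-week-old plants of the flu1-1 mutant in the Landsberg erecta (Ler) ecotype received a spray of paraquat in 0.1% Tween, a detergent, or of 0.1% Tween alone, and were taken 1, 2 and 4 h later. The 6 groups were thus paraquat 1 h, paraquat 2 h, paraquat 4 h, mock 1 h, mock 2 h and mock 4 h, all of the same mutant, so no wild-type leaves enter any comparison and every mock leaf was sprayed too. Leaves not sprayed at all are not analysed here. The sample titles give the paraquat dose as 20 mM and the treatment protocol as 20 microM. Plants were kept in continuous light, each sample held the leaves of 5 to 6 plants, and RNA of 2 experiments was pooled on 1 Affymetrix ATH1 array per group, so the spread between plants or experiments cannot be seen.

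Paraquat, also called methyl viologen, draws electrons from photosystem I in the light and passes them to oxygen, which gives superoxide and then hydrogen peroxide. The flu mutant lacks a brake on chlorophyll synthesis and builds up a photosensitising precursor in the dark, which releases singlet oxygen in the light. Many leaf transcripts respond within minutes to touch, wounding, spraying or a microbial signal and then decline again. Whether the 4 genes are among them was not tested. From general knowledge, AT1G22810 encodes a transcription factor of the DREB A-5 group in the AP2/ERF family, and AT4G37290 encodes the precursor of a small secreted peptide that amplifies immune responses. AT1G05575 belongs to the genes listed here as responding to singlet oxygen in flu. The gene table used gives no product or symbol for any of the 4, and no role is given here for AT1G76600.

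Array medians lay between 157.7 and 162.0 signal units. A signal of 86.2, the 40th percentile of all signals, served as the floor below which a probe set was treated as dim. For 25S ribosomal RNA, the control signals at 1, 2 and 4 h were 307.7, 111.4 and 243 with paraquat and 124.3, 130.5 and 92.8 with mock spray, and the 3' to 5' signal ratio of the GAPDH control lay between 0.89 and 1.15 over all 6. Their part in the results was not tested. The leaf label was checked on RCA, which encodes Rubisco activase, with signals of 14415 to 15210 on paraquat arrays and 14855 to 16284 on mock arrays. RCA was 1 of 4 mesophyll markers with a probe set naming it alone, as were 2 of 4 guard cell markers, 1 of 2 root markers, and none of the 2 phloem, 3 epidermis and 2 flower markers. The guard cell marker FMA had signals of 249 to 317 on paraquat arrays and 255 to 320 on mock arrays, and the other, AT1G22690, was 1577 and 1253 at 4 h in paraquat and mock leaves, against 2398 and 2467 at 1 h. The root marker EXPA7 was above the floor on the mock 1 h array alone, at 95.9. In bulk leaves, fewer cells of a type and less RNA per cell cannot be told apart.

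The ratio of AT1G76600 came with a higher paraquat signal and a lower mock signal. Its signal was 1415, 1242 and 3862 in paraquat leaves at 1, 2 and 4 h, and 742, 446 and 338 in mock leaves. The paraquat array was the higher at each hour. In paraquat leaves the signal at 4 h was 2.73 times that at 1 h, and in mock leaves it was 2.20-fold lower at 4 h than at 1 h. On the scale of log2(signal + 34), on which all log2 values here are given, the change between 1 and 4 h was 1.43 in paraquat leaves and -1.06 in mock leaves. The paraquat/mock log2 ratios at the 3 hours were 0.90, 1.41 and 3.39. Of its growth of 2.49, the higher paraquat level made up 57.3% and the lower mock level 42.7%. The paraquat signal was not higher at 2 h than at 1 h (log2 change -0.18), and its increase lay between 2 and 4 h (1.61).

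The ratio of AT1G05575 also came from both sides, with the mock side the larger. Its signal was 953, 542 and 1507 in paraquat leaves at 1, 2 and 4 h, and 841, 319 and 156 in mock leaves. At 1 h the treatments stood close together, at 2 h both were lower, and at 4 h the paraquat array was the highest of the 6 and the mock array the lowest. The 4 h signal was 1.58 times the 1 h signal in paraquat leaves and was 5.39-fold lower than the 1 h signal in mock leaves. The log2 change between 1 and 4 h was 0.64 in paraquat leaves and -2.20 in mock leaves, and the lower mock level made up 77.4% of the ratio's growth of 2.85. The first step was shared by the treatments, with log2 changes between 1 and 2 h of -0.78 in paraquat leaves and -1.31 in mock leaves. In the second step they parted, with 1.42 in paraquat leaves and -0.89 in mock leaves between 2 and 4 h. The log2 ratio was 0.17, 0.71 and 3.02 at 1, 2 and 4 h.

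The ratio of AT4G37290 came with a higher paraquat signal alone. Its signal was 7.51, 83.4 and 295 in paraquat leaves at 1, 2 and 4 h, and 4.03, 5.76 and 7.22 in mock leaves. The paraquat signal was far below the floor at 1 h, just below it at 2 h and above it at 4 h, and the 3 mock signals were far below it. The log2 change between 1 and 4 h was 2.99 in paraquat leaves, with 1.50 of it between 1 and 2 h and 1.49 between 2 and 4 h, and 0.12 in mock leaves. The log2 ratio was 0.13, 1.56 and 3.00 at 1, 2 and 4 h, and its growth of 2.87 came with no lower mock level. The 4 h ratio of this peptide precursor gene rests on a mock signal below the floor, which leaves the paraquat signal at least 3.42-fold higher, and the log2 ratio stood at 4.27 with a pseudocount 4 times smaller and at 1.59 with one 4 times larger.

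The ratio of AT1G22810 came with a lower mock signal alone. Its signal was 237, 242 and 219 in paraquat leaves at 1, 2 and 4 h, and 419, 213 and 35.2 in mock leaves. The 3 paraquat signals lay within a narrow range, while the mock array was the brighter of the pair at 1 h and was below the floor at 4 h. The paraquat signal at 4 h was 0.92 times that at 1 h, and the mock signal, below the floor at 4 h, was at least 4.86-fold lower then than at 1 h with the floor put in its place. The log2 change between 1 and 4 h was -0.10 in paraquat leaves and -2.71 in mock leaves. The larger part of the mock change lay between 2 and 4 h (-1.83), after -0.88 between 1 and 2 h. The log2 ratio of this transcription factor gene was -0.74, 0.16 and 1.87 at the 3 hours, so that paraquat leaves were below mock leaves first and above them last. As the mock 4 h signal was dim, the paraquat signal there was at least 2.54-fold higher.

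**Figure D1:**
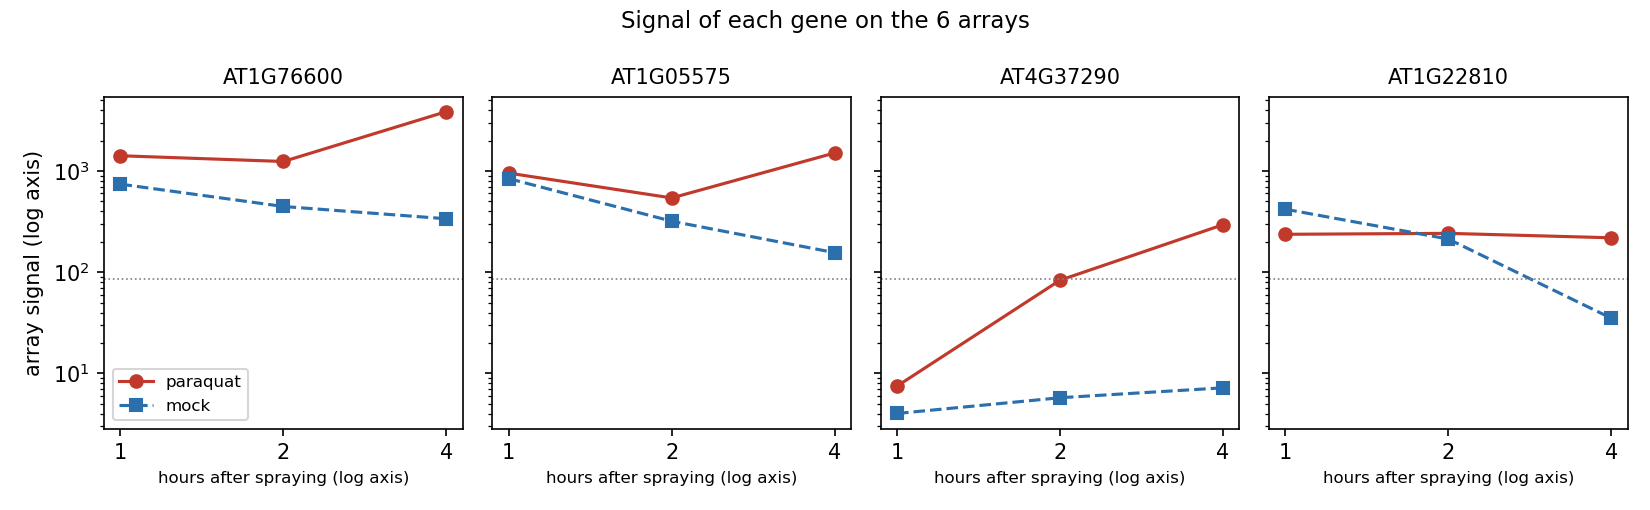
Signal of the 4 genes (log axis) against hours after spraying (log axis), 1 array per point, with paraquat leaves as red circles, mock leaves as blue squares and the floor of 86.2 as a dotted line. AT1G76600 and AT1G05575 part in both directions by 4 h, AT4G37290 leaves the range below the floor only with paraquat, and AT1G22810 stays near 237 with paraquat while its mock signal is 35.2 at 4 h.

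**Figure D2:**
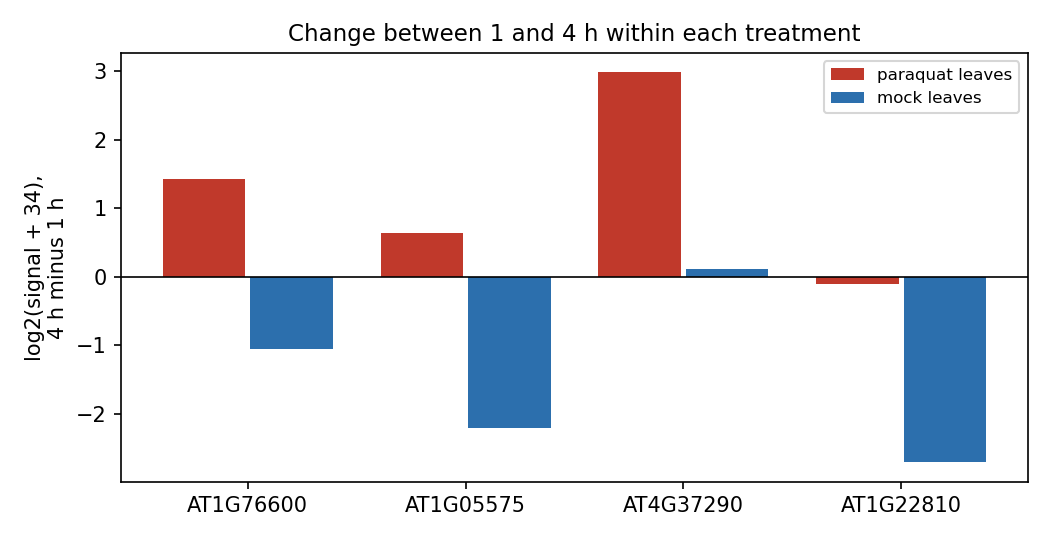
Log2 change between 1 and 4 h in paraquat leaves (red) and mock leaves (blue) for each gene, from 1 array per treatment and hour, with no error bars. The bars run from 2.99 for AT4G37290 in paraquat leaves to -2.71 for AT1G22810 in mock leaves.

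The 4 genes were counted at a 2-fold difference, beside every probe set with a signal over the floor on either array of the pair. At 4 h all 4 were at least 2-fold higher in paraquat than in mock leaves, against 1.24% of 13914 probe sets, which the choice of genes fixes. At 1 h, 0 of the 3 members above the floor were at least 2-fold higher (0.457% of 14214 probe sets), and at 2 h 1 of 3 was, AT1G76600 (0.45% of 14217). In paraquat leaves, 2 of 4, AT1G76600 and AT4G37290, were at least 2-fold higher at 4 h than at 1 h (2.88% of 14110), and 0 of 4 were at least 2-fold lower (2.75%). In mock leaves, 3 of the 3 members above the floor were at least 2-fold lower at 4 h than at 1 h, against 3.81% of 14316 probe sets. AT4G37290 passed the floor only on the paraquat 4 h array, so in paraquat leaves it could be counted only as higher. AT1G22810 was below the floor on the mock 4 h array, so in mock leaves between 1 and 4 h it could be counted only as lower. The paraquat change and the ratio share the paraquat arrays. The mock change and the ratio share the mock arrays, and a low mock 4 h array or a high mock 1 h array enters both, so these counts do not stand apart from the choice of the genes. With 1 array per group there is no replicate check on any of them, and no order between neighbouring levels could be set against a spread.

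The steps between hours differed among the genes. Between 2 and 4 h, 3 of 4 members were at least 2-fold higher in paraquat leaves (1.66% of 14173 probe sets), namely AT1G76600, AT1G05575 and AT4G37290. Between 1 and 2 h, 0 of the 3 members above the floor were (1.06% of 14193). AT4G37290 was below the floor on both of those arrays, with signals of 7.51 at 1 h and 83.4 at 2 h, and had a log2 change of 1.50 there, as large as its later step. In the later step it passed the floor only on the paraquat 4 h array, so it could be counted only as higher. That array also entered the ratio by which the genes were chosen, so the later count does not stand apart from that choice. The paraquat-side increase of AT1G76600 and AT1G05575 lay in the later step. On the mock side, AT1G05575 was at least 2-fold lower at 2 h than at 1 h, 1 of 3 above the floor (2.07% of 14316), and AT1G22810 at 4 h than at 2 h, also 1 of 3 (1.8% of 14154). In that mock step between 2 and 4 h, AT1G22810 passed the floor only on the 2 h array, so it could be counted only as lower. AT1G76600 passed 2-fold in neither mock step, with -0.69 and -0.37.

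**Figure D3:**
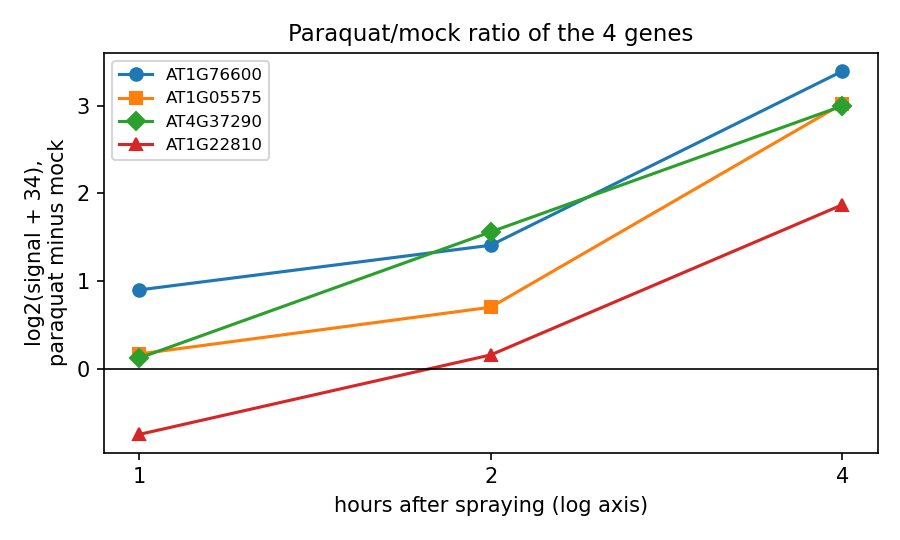
Paraquat minus mock difference of log2(signal + 34) for the 4 genes against hours after spraying (log axis), 1 array pair per point. The 4 ratios lie between -0.74 and 0.90 at 1 h and between 1.87 and 3.39 at 4 h, and AT1G22810 crosses 0.

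The hour slope averaged over both treatments was tested, since it does not use the difference between the treatments. It uses the same 6 arrays, however, so a mock or paraquat change that made a ratio grow enters it too. It is the mean of the slopes in paraquat and in mock leaves, each a log2 change per doubling of time. A gene that only declined in mock leaves has a negative averaged slope, and one that moved by like amounts in opposite directions has a slope near 0. Per doubling of time, AT1G22810 fell by 0.70 ± 0.11 (log2 scale, SE moderated by limma, 6 arrays, limma adjusted p = 0.036), and the slopes within the treatments were -0.05 in paraquat and -1.36 in mock leaves. AT1G05575 had an averaged slope of -0.39 ± 0.20 (limma adjusted p = 0.37), made of 0.32 in paraquat and -1.10 in mock leaves. AT1G76600 had 0.09 ± 0.17 (limma adjusted p = 0.83), made of 0.71 in paraquat and -0.53 in mock leaves. AT4G37290 was above the floor on 1 of 6 arrays and did not enter this test, which asked for 3. Its averaged slope was 0.78, made of 1.49 in paraquat and 0.06 in mock leaves. Without the filter on low signals it was tested and called higher (0.78 ± 0.09, limma adjusted p = 0.044), as were 65 of 22746 probe sets at that setting. Its 1 array above the floor, paraquat 4 h, also gave the ratio by which it was chosen. This call does not stand apart from that choice.

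Of the 3 members tested, 1 was thus called lower, against 2.08% of 13837 probe sets, and 0 higher, against 2.07%. The lower mock signals of AT1G22810 enter both its ratio and this call, so the count does not stand apart from the choice of the genes. The error in this test is the departure of the 3 hours from a straight line on the log2 hour, not a spread between repeated samples. With the 4 h arrays left out the slope of AT1G22810 was -0.425, and without 1 h it was -0.98, both with no test. Its call was lost without the filter on low signals (limma adjusted p = 0.099) and without the product of treatment and hour in the model (limma adjusted p = 0.18).

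Among 8023 probe sets naming 1 gene and above the floor on 1 array or more, the ratio slopes of the 4 members ranked 5 (AT4G37290, 1.43), 6 (AT1G05575, 1.42), 7 (AT1G22810, 1.31) and 9 (AT1G76600, 1.24). A pseudocount 4 times larger changed the order of the 4, with slopes of 0.78 for AT4G37290, 1.17 for AT1G05575, 0.81 for AT1G22810 and 1.13 for AT1G76600, and AT4G37290 was below the floor on 5 of 6 arrays. The rule of choice states no limit on the slope, and 6 other genes fill ranks 1 to 4, 8 and 10. They are AT1G54050 (1.84), AT2G29500 (1.44) and AT5G51440 (1.28), which encode small heat shock proteins, AT5G16960 (1.63), AT5G10830 (1.46) and AT5G14730 (1.24). On the scale used, the log2 change of these 6 genes between 1 and 4 h ran from 2.20 to 3.72 in paraquat leaves and from -0.72 to 0.51 in mock leaves. AT5G14730, just below AT1G76600 in rank, had signals of 84.4, 219 and 568 in paraquat leaves at 1, 2 and 4 h and of 68.8, 82.4 and 60.2 in mock leaves. Its growing ratio thus had the paraquat-side form of AT4G37290, and none of the 6 had a mock signal at least 2-fold lower at 4 h than at 1 h on this scale.

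The 4 profiles were unlike one another to different degrees. Over the 6 arrays, which the genes share, Pearson's r of log2(signal + 34) was 0.89 between AT1G05575 and AT1G76600 and 0.83 between AT1G76600 and AT4G37290. It was 0.12 between AT4G37290, whose paraquat signals differ, and AT1G22810, whose mock signals differ. The remaining 3 pairs had r between 0.45 and 0.74.

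Likeness was ranked among 974 probe sets that name 1 gene, pass the floor on 3 or more arrays and span at least 1 log2 unit. In it the profile closest to AT1G76600 was that of B120, a lectin receptor kinase gene (r = 0.98), with signals of 261, 218 and 401 in paraquat leaves at 1, 2 and 4 h and of 206, 160 and 110 in mock leaves. B120 was also the closest to AT1G05575 (r = 0.96). Like both genes, it was higher in paraquat and lower in mock leaves at 4 h than at 1 h. Next came AT2G21640 (r = 0.96) and AT1G70420 (r = 0.92) for AT1G76600, and AT4G24160 (r = 0.95) and AT5G03380 (r = 0.93) for AT1G05575. The mock signals at 1 and 4 h hardly differed for AT2G21640 (174 and 163) and AT1G70420 (128 and 131). AT5G03380 was not higher at 4 h in paraquat leaves (1331 and 1254). AT4G24160 was higher in paraquat leaves (1173 and 1894) and lower in mock leaves (1589 and 521). For AT4G37290 the closest were AT2G36950 (r = 0.995), with 278, 431 and 661 in paraquat leaves and 246, 241 and 265 in mock leaves, AT3G62550 (r = 0.99) and the glucosyltransferase gene UGT73B5 (r = 0.97). UGT73B5 had signals of 62.6, 274 and 995 in paraquat leaves and of 30.7, 91.2 and 102 in mock leaves, so it was higher at 4 h than at 1 h in mock leaves as well. For AT1G22810 the closest was the beta-tubulin gene TUB5 (r = 0.99), with 895, 787 and 733 in paraquat leaves and 1037, 740 and 379 in mock leaves. After it came AT2G23300 (r = 0.96) and AT3G32270 (r = 0.95).

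AT1G22810 was set beside its own group of transcription factors. Of 16 listed DREB A-5 genes, 7 had a probe set naming them alone, of which 6 are other genes than AT1G22810. At least 2-fold lower at 4 h than at 1 h were 2 of the 4 above the floor in paraquat leaves, with a median log2 change of -0.64, and 2 of 4 in mock leaves, with a median of -1.11. Over all probe sets 2.75% in paraquat and 3.81% in mock leaves were at least 2-fold lower, and the medians were -0.00 in paraquat and 0.01 in mock leaves. AT1G77640 and AT1G33760 were the 2 in either treatment. In mock leaves each of the 4 passed the floor at 1 h but not at 4 h, so each could be counted only as lower. The same held for AT1G77640 and AT1G33760 in paraquat leaves. The filter thus enters these counts and medians, which do not compare freely with those over all probe sets. AT1G77640 had signals of 167, 44.5 and 57.3 in paraquat leaves at 1, 2 and 4 h and of 185, 47.1 and 46.4 in mock leaves. AT1G33760 had 101, 3.41 and 1.79 in paraquat leaves and 121, 17.7 and 2.41 in mock leaves. AT1G19210, dim on all arrays, had 64.6, 59.2 and 43.0 in paraquat leaves and 20.8, 73.0 and 54.4 in mock leaves. AT1G77640 and AT1G33760 were dim at 2 and 4 h in either treatment, unlike AT1G22810, whose paraquat signal was still 219 at 4 h. ORA47, a factor of the jasmonate response, had the form of AT1G22810 at a smaller size, with 128, 161 and 132 in paraquat leaves and 136, 91.4 and 65.8 in mock leaves. AT1G44830 had 99.5, 88.8 and 87.2 in paraquat leaves and 107, 67.8 and 59.7 in mock leaves. Of the 2 tested for the averaged slope, 0 passed, against 2.07% higher and 2.08% lower over all 13837 probe sets.

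AT4G37290 was set beside other immune peptide genes. Of 9 listed peptide precursors and receptors, 2 genes other than AT4G37290 had a probe set naming them alone, and both encode precursors of its own peptide family. AT2G23270 had signals of 54.4, 99.4 and 225 in paraquat leaves at 1, 2 and 4 h and of 30.9, 50.8 and 71.1 in mock leaves, and its log2 ratio was 0.45, 0.65 and 1.30. AT4G28460 had 97.1, 139 and 207 in paraquat leaves and 77.8, 153 and 95.1 in mock leaves, with a log2 ratio of 0.23, -0.12 and 0.90. Both were brightest on the paraquat 4 h array, as AT4G37290 was, and neither had a mock signal lower at 4 h than at 1 h. At least 2-fold higher in paraquat than in mock leaves at 4 h was 1 of the 2, AT2G23270 (1.24% of 13914 probe sets). Its mock 4 h signal was below the floor, so at 4 h it could be counted only as higher. AT4G28460, the 1 of them tested for the averaged slope, did not pass (0.27 ± 0.14, limma adjusted p = 0.36).

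Genes of pattern-triggered immunity, the response to conserved microbial molecules, had a probe set for 5 of 18 listed genes. In paraquat leaves 3 of 5 were at least 2-fold lower at 4 h than at 1 h, with a median log2 change of -1.23, and in mock leaves 3 of 5, with a median of -1.99. The shares over all probe sets were 2.75% in paraquat and 3.81% in mock leaves. In mock leaves WRKY22 and PUB22 passed the floor at 1 h but not at 4 h, so there they could be counted only as lower. In the averaged test 3 of 5 fell, against 2.08% of 13837 probe sets. PUB22 and PUB23, ubiquitin ligases that dampen immune signalling, had averaged slopes of -0.89 ± 0.09 (limma adjusted p = 0.013) and -0.91 ± 0.11 (limma adjusted p = 0.016), and the transcription factor gene WRKY22 had -0.91 ± 0.08 (limma adjusted p = 0.012). PUB23 had signals of 908, 460 and 368 in paraquat leaves at 1, 2 and 4 h and of 748, 385 and 111 in mock leaves. With a log2 ratio of 1.47 it was the 1 gene of the 5 at least 2-fold higher with paraquat at 4 h (1.24% of 13914 probe sets). Its mock signals were ordered as those of AT1G05575 and AT1G22810 were, while its paraquat signal was lower at 4 h than at 1 h. The receptor gene EFR (-0.39 ± 0.14, limma adjusted p = 0.21) and the kinase gene BIK1 (-0.11 ± 0.14, limma adjusted p = 0.73) did not pass.

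AT1G05575 was set beside the other genes listed for singlet oxygen in flu, of which 5 had a probe set naming them alone. Of these, 3 fell in the averaged test, against 2.08% of 13837 probe sets. They were AT5G64870, by 0.70 ± 0.09 (limma adjusted p = 0.020), AT1G57630, by 0.49 ± 0.09 (limma adjusted p = 0.041), and AT3G01830, by 0.43 ± 0.06 (limma adjusted p = 0.025). All 3 calls were lost without the filter on low signals (limma adjusted p from 0.0504 to 0.12), that of AT1G57630 also without the product term (limma adjusted p = 0.057) and that of AT3G01830 without the variance trend (limma adjusted p = 0.053). AT5G64870 encodes a flotillin-like membrane protein, AT1G57630 a protein with a TIR domain and AT3G01830 a calmodulin-like protein. At 4 h, 1 of the 5 was at least 2-fold higher with paraquat, AT1G57630 (1.24% of 13914 probe sets). It had signals of 227, 194 and 151 in paraquat leaves at 1, 2 and 4 h and of 214, 126 and 55.1 in mock leaves. Its mock 4 h signal was below the floor, so at 4 h it could be counted only as higher. The ratio of AT1G57630 came with a lower mock level, as most of that of AT1G05575 did, while its paraquat signal was lower at 4 h than at 1 h. AT1G19020 had 3659, 3855 and 3037 in paraquat leaves and 3428, 4102 and 1848 in mock leaves. AT3G28580 had the lower signal with paraquat at 4 h, with 254, 250 and 174 in paraquat leaves and 116, 256 and 271 in mock leaves. The median log2 ratio of the 5 at 4 h was -0.05, against -0.02 over all probe sets.

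Touch and early wound response genes had a probe set for 7 of 43 listed genes, and 6 of them were above the floor at 4 h. There 2 of 6 were at least 2-fold higher with paraquat (1.24% of 13914 probe sets), the zinc finger gene STZ and the calmodulin-like gene CML37. The median log2 ratio of the 6 was 0.72, against -0.02 over all probe sets. STZ had signals of 1597, 2335 and 3281 in paraquat leaves at 1, 2 and 4 h and of 1098, 1770 and 1539 in mock leaves. In mock leaves 0 of 6 were at least 2-fold lower at 4 h than at 1 h (3.81% of 14316 probe sets). In the averaged test 0 of 6 passed in either direction, against 2.07% higher and 2.08% lower over all probe sets. WRKY53, the brightest of them, had 2291, 2751 and 1529 in paraquat leaves and 2419, 3844 and 1992 in mock leaves, and WRKY6 had 631, 801 and 855 in paraquat leaves and 378, 621 and 428 in mock leaves. A mock signal at least 2-fold lower at 4 h, as in AT1G05575, AT1G76600 and AT1G22810, was thus not seen in the few measured genes of this list. None of the 12 listed jasmonate synthesis and JAZ genes had a probe set naming it alone.

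**Figure D4:**
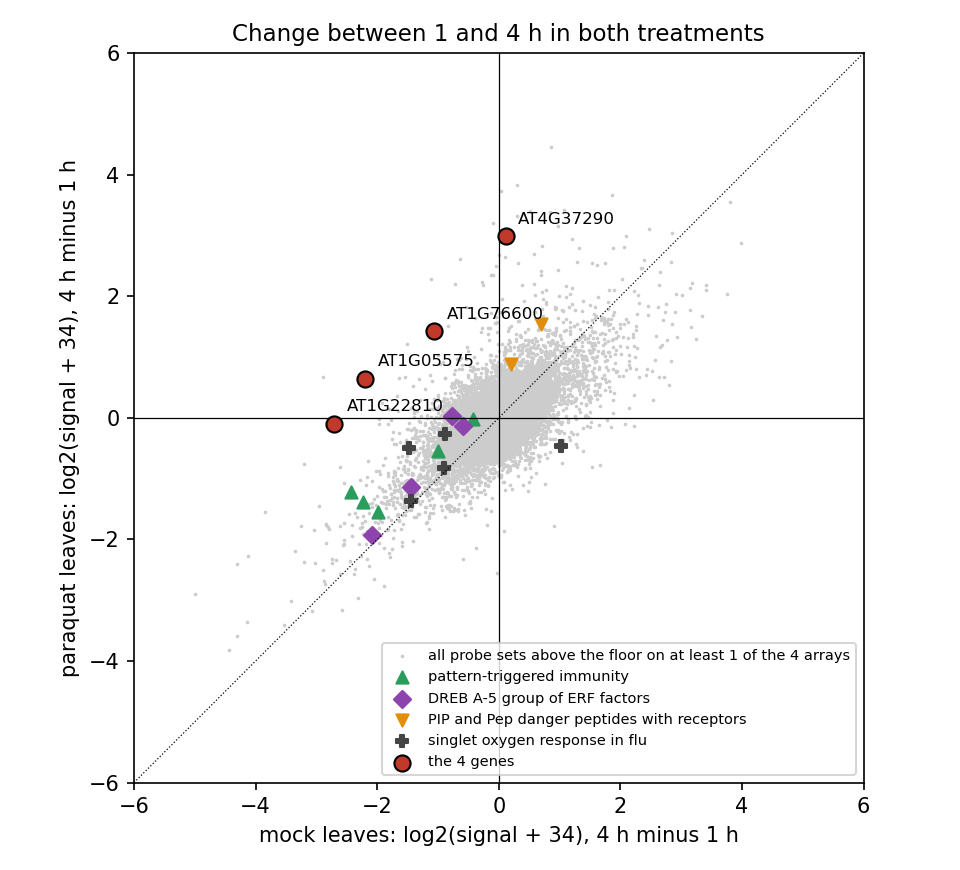
Log2 change between 1 and 4 h in paraquat leaves (y axis) against that in mock leaves (x axis), with the 4 genes in red, listed genes as coloured symbols and every probe set with a signal over the floor on any of the 4 arrays in grey. AT1G22810 and AT4G37290 lie close to one axis each, AT1G05575 and AT1G76600 lie between them in the upper left, and the pattern-triggered immunity genes WRKY22, PUB22 and PUB23 lie at the lower left, where both treatments were lower at 4 h.

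The measured genes that overlap or flank the 4 in the genome and pass the floor had log2 ratios below 0 at 4 h. The median over all probe sets was -0.02, so a ratio below 0 is common. AT1G22800, which overlaps AT1G22810 in the gene table, had a log2 ratio of -0.32 at 4 h, with 186 in paraquat and 241 in mock leaves, against 1.87 for AT1G22810. AT1G76590, next to AT1G76600, had a log2 ratio of -0.40 at 4 h, with 317 in paraquat and 429 in mock leaves. AT4G37295, next to AT4G37290, had -0.23, with 100.5 in paraquat and 124 in mock leaves. AT1G22790, next to AT1G22810, had -0.09, with 225 in paraquat and 242 in mock leaves. AT1G22830, on the far side of AT1G22810, was below the floor on all 6 arrays, and so was AT1G05577, next to AT1G05575. Their log2 ratios at 4 h were 0.54 for AT1G22830, with 45.8 in paraquat and 20.8 in mock leaves, and -0.04 for AT1G05577. No probe set names alone AT1G04397, which overlaps AT1G05575, or AT1G05767, which overlaps AT1G22810. These neighbours were chosen after the values of the 4 genes had been seen.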

How the data were processed

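The authors deposited a linear signal intensity per probe set and array. MAS5 is named, with no version, per the submitters' processing notes, and the 2% trimmed mean was 500.04 on each array, so each had been brought to 1 common level and only relative changes are left. Detection calls were not used here. Groups came from the sample titles. The 64 control probe sets were left out.

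Values were taken as log2(signal + 34), 34 being the 25th percentile of the signals, rounded, so ratios of dim probe sets are understated. For the hour slope, R 4.3.3 and limma 3.58.1 were used (lmFit, eBayes with a variance trend, two-sided, Benjamini-Hochberg at 0.05), over the 13837 probe sets whose signal passed the floor on 3 or more of 6 arrays. Its terms were treatment, log2 of the hour and their product, with 2 residual degrees of freedom. The steps were tested on simulated data, with slopes larger than those printed here. That test thus does not tell how well slopes of the printed size are found. The number of arrays limits the precision, at 1 per group.

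Probe sets were named by the probe annotation given here and the TAIR10.1 gene table (13436 of 13513 matched). No build is named by the files, so no coordinates are printed, and no sequences were used here, so no similar proteins were searched for.

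The members and lists were chosen with earlier results of these data known. Named were the 4 genes, the 6 other genes with the highest ratio slope, 3 genes most like each member by Pearson's r, and of each list up to 4 genes by mean signal and any called for the hour slope, with the brightest probe set where a gene has several. AT1G33760, outside this rule, was named after its values were seen.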

Additional observations from a re-analysis of the deposited data

Results flagged for a closer look

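In 2 of the genes the treatments moved in opposite directions between 1 and 4 h, each with 1 array per group, so the difference was not tested. The log2 change was 0.64 in paraquat leaves and -2.20 in mock leaves for AT1G05575, and 1.43 in paraquat leaves and -1.06 in mock leaves for AT1G76600. The paraquat/mock log2 ratio of AT1G22810 had opposite signs at 1 h (-0.74) and at 4 h (1.87), again not tested. All 3 genes were chosen for a growing ratio, which makes such pairs likely.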

How the results depend on the processing

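The direction of the 4 h ratio and of the change between 1 and 4 h in each treatment was kept for all 4 genes with other pseudocounts, quantile normalization and 75th percentile scaling, and the sizes depended on the pseudocount. With one 4 times larger, AT1G05575 had a 4 h ratio of 2.49 and a mock change of -1.74, AT4G37290 a ratio of 1.59 and a paraquat change of 1.59, and AT1G22810 a ratio of 1.05 and a mock change of -1.70. With one 4 times smaller, AT4G37290 had a ratio of 4.27, a paraquat change of 4.24 and a mock change of 0.33, and AT1G22810 a ratio of 2.38 and a mock change of -3.29. Over all probe sets the averaged hour slope was higher for 287 and lower for 288, against 65 and 90 with no filter, 162 and 170 with no variance trend, and 439 and 485 with no product term. The averaged slope of AT1G05575 was 0.26 without 1 h and that of AT1G76600 was -0.44 without 4 h, opposite in sign to their values over 3 hours. No limma call was made for the ratio slope (0 higher and 0 lower, with 415 at an unadjusted p under 0.05), while 59 were higher and 48 lower with the hour as a block, a setting chosen after seeing the data. That setting pairs paraquat with mock arrays by hour. With 1 array per group there are no replicate numbers to pair. Signals below the floor limit the ratios of AT4G37290 and AT1G22810.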
